A study of Mus musculus with 8 samples.

Results

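Fatty acid synthesis in the liver was followed through 10 genes, chosen by symbol among the 55416 genes of the deposited expression table: Slc13a5, Acly, Acaca, Acacb, Me1, Fasn, Elovl6, Scd1, Srebf1 and Mlxipl. Their levels were compared in whole livers of 4 groups of mice with 2 libraries each, 8 libraries in all. Floxed mice (Glul flox/flox) carry a conditional allele of Glul, the glutamine synthetase gene, without loss of it. GlulΔlyz2 mice, called KO here, lose Glul in cells with Cre recombinase driven from Lyz2, which are macrophages, monocytes and neutrophils, so the deletion is not directed at hepatocytes. Mice of each genotype received H2O, or lipopolysaccharide (LPS, 1 mg/kg) together with D-galactosamine (D-GalN, 200 mg/kg), by injection into the peritoneum, and the livers that received the latter are called injured. LPS activates myeloid cells through Toll-like receptor signalling, while D-GalN depletes uridine nucleotides in hepatocytes and hinders their RNA synthesis. The study's title concerns a worsening of this injury when myeloid cells lack glutamine synthetase. The sources used here give neither the time from injection to collection nor the age, sex and strain background of the mice. Nothing says that the 2 libraries of a group are of different animals, and the p-values cover the spread between libraries, which may be technical.

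Hepatocytes make fatty acids from citrate that leaves the mitochondria or enters from the blood. ATP citrate lyase splits citrate into acetyl-CoA, acetyl-CoA carboxylase turns acetyl-CoA into malonyl-CoA, fatty acid synthase builds palmitate from both with NADPH, and elongases and desaturases then lengthen and desaturate the product. Insulin acts on most of these genes through the transcription factor SREBP-1c and carbohydrate through ChREBP, so the pathway rises in fed liver and falls in fasting.

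The table gives FPKM, that is the fragments of a gene divided by its length and by the number of fragments assigned in the library, so levels of different genes are compared per length. The values imply between 18381670 and 24799143 assigned fragments in a library. All 10 genes had at least 1 FPKM in at least 2 libraries and were among the 13708 genes tested. Of the 10, 9 were above 1 FPKM in every library, with between 373 and 116128 fragments each. Slc13a5 reached 1 FPKM in 3 libraries, both injured floxed ones and 1 injured KO one, and had between 14 and 2534 fragments, so that it entered the tests through the group where it was high and its rise lends no support to a count. Glul itself, which hepatocytes near the central vein express strongly, averaged 106 ± 1.17 FPKM in the floxed and 112 ± 31.5 FPKM in the KO group that received H2O (SD, n = 2), so whole liver does not check its loss from myeloid cells. In injured livers it averaged 297 ± 85.9 FPKM in floxed and 82.3 ± 10.99 in KO mice. None of 12 hepatocyte markers was at 0 in both libraries of any group, with summed levels of 28749 to 39724 FPKM in the H2O groups, 29036 and 29519 in injured floxed and 39304 and 40106 in injured KO livers. Of the 12, 6 fell and 2 rose in injured floxed livers (median log2 change -0.69), and 3 fell and 2 rose in injured KO livers (median -0.29). The part of this in the changes of the 10 genes was not tested.

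The 300 bases around the transcription start, 250 before and 50 after it, are shown for Fasn, Acacb, Srebf1 and Slc13a5. These are the 4 genes whose levels differed between the genotypes under injury. Also shown is the Mlxipl window that holds the only match to the sterol regulatory element as spelled below. The windows are from RefSeq (GRCm38.p6), which had 14 windows for 9 of the 10 genes. Each runs 5′ to 3′ on the strand of the gene, with capitals for a match on either strand to the sterol regulatory element TCACNCCAC, which SREBP proteins bind, the E-box CACGTG, the CCAAT box of NF-Y or the GC box GGGCGG of Sp1.
Fasn, chr11:120824498-120824797, minus strand: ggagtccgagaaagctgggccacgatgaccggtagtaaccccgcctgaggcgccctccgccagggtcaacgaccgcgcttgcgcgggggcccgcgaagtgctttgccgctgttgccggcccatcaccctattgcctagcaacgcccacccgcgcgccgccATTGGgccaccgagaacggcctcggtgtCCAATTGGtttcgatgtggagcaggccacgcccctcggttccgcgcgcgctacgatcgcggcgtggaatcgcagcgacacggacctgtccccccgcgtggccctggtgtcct
Acacb, chr5:114165268-114165567, plus strand: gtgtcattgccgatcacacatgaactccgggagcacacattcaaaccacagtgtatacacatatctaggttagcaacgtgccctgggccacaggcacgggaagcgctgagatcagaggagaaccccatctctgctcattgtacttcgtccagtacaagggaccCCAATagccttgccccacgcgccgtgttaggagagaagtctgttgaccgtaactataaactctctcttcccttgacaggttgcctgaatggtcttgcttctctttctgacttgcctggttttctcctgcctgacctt
Srebf1, chr11:60210422-60210721, minus strand: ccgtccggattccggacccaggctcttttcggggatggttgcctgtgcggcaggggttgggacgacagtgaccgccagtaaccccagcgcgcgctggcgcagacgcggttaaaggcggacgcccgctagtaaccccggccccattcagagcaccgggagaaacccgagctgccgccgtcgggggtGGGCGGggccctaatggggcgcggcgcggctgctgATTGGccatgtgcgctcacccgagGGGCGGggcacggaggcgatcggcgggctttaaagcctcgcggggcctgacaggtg
Slc13a5, chr11:72266555-72266854, minus strand: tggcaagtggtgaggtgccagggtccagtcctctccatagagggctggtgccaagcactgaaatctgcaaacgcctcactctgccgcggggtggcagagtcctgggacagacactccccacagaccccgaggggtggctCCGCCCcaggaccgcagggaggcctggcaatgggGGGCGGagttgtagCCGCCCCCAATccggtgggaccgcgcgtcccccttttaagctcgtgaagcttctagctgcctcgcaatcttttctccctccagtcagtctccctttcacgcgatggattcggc
Mlxipl, chr5:135106641-135106940, plus strand: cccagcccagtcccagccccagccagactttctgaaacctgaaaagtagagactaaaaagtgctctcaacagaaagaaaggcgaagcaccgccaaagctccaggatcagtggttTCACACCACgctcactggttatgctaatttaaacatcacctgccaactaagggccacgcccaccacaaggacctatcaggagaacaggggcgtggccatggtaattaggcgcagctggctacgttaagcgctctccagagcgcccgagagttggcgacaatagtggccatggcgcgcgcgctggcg
Fasn held 3 CCAAT boxes, which begin at -90, -62 and -59 from its start, and the latter pair overlap. Acacb had a single one, at -87. The Slc13a5 and Srebf1 windows shown combined a CCAAT box with 3 and 2 GC boxes. RefSeq had further windows for both genes, and none of those held both motifs. Of the 14 windows 8, from 7 genes, held a CCAAT box, which was found in 37.4% of all 32851 windows of the same length. The GC box was in 7 windows from 5 genes and in 35.7% of all windows. The E-box (7.15% of all windows) and the sterol regulatory element (1.24%) were each found in 1 window, both of Mlxipl. These matches describe the letters only. Sites spelled otherwise were not counted, so a window without a match is not shown to lack the element. The Fasn and Acacb windows shared the CCAAT box and none of the other motifs, and their levels went opposite ways between the injured genotypes, as described next.

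Most of the pathway was lower after injury in both genotypes. In floxed livers 7 of the 10 genes fell and Slc13a5 rose, in a comparison in which 38.8% of all genes tested fell and 18.5% rose. The 7 are counted among the 9 genes above 1 FPKM in every library. In KO livers the same 7 genes, Acly, Acaca, Acacb, Me1, Fasn, Srebf1 and Mlxipl, fell and none rose, against 40.7% and 22.3% of all genes. The median log2 change of the 10 genes was -1.86 in floxed and -1.38 in KO livers, where the median of all genes tested was -0.28 in both. Both injured groups are compared below with their own H2O group and then with each other. Fewer hepatocytes and less RNA in each hepatocyte cannot be told apart in whole liver.

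**Figure D1:**
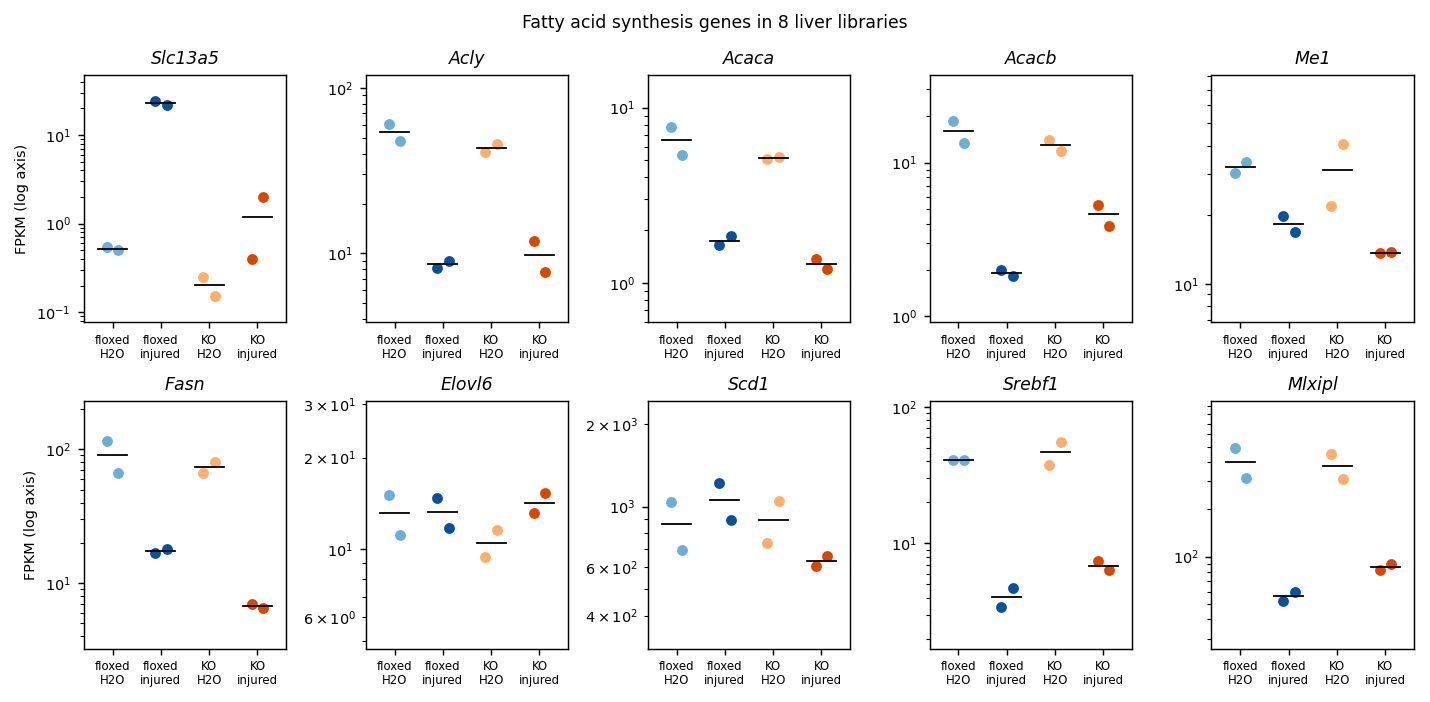
Level of each of the 10 genes in FPKM (log axis, scaled for each gene) in the 8 libraries, by genotype and treatment. Points are libraries and lines are the means of 2. Elovl6 lies between 9.47 and 15.4 FPKM and Scd1 between 607 and 1216 FPKM in all libraries, Slc13a5 stood at 24.1 and 21.8 FPKM in injured floxed livers, and the injured libraries of the other 7 genes lie below every H2O library. The share of all genes whose injured libraries lie below every H2O library was not counted.

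Slc13a5 encodes the sodium-coupled citrate carrier of the hepatocyte plasma membrane, which brings citrate in from the blood. Its level in floxed livers was 0.543 and 0.501 FPKM after H2O and 24.1 and 21.8 after injury, and in KO livers 0.247 and 0.154 FPKM after H2O and 0.400 and 1.98 after injury. Both injured floxed libraries thus stood far above the other 6, and of the injured KO libraries 1 was near the level of the H2O livers and the other was higher. The mean in injured floxed livers was 43.9-fold that of their H2O group (log2 change 3.97 ± 0.30 SE, adjusted p = 5.92e-05). The KO groups had a log2 change of 0.77 ± 0.30 (adjusted p = 0.0571), which passed under 6 of 18 alternatives (adjusted p from 0.00105 to 0.23), and injured KO livers were at 5.19% of injured floxed livers (log2 difference -3.55 ± 0.30, adjusted p = 0.000231). The change differed between genotypes by -3.21 ± 0.43 on the log2 scale (adjusted p = 0.00237). This difference and the rise in floxed livers kept their direction under every alternative tried. That is no added support, because Slc13a5 entered the tests through the group where it was high.

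Acly encodes ATP citrate lyase, which releases acetyl-CoA from citrate in the cytosol. It was at 60.1 and 47.8 FPKM after H2O and at 8.21 and 8.97 after injury in floxed livers, and at 41.1 and 46.0 after H2O and 11.9 and 7.68 after injury in KO livers. The 4 injured libraries were all below the 4 H2O libraries, and the injured genotypes overlapped. Acly fell by 2.51 ± 0.22 on the log2 scale in floxed livers (adjusted p = 0.000104) and dropped by 2.07 ± 0.22 in KO livers (adjusted p = 0.000169). Between the injured genotypes the log2 difference was 0.14 ± 0.22 (adjusted p = 0.62). In injured floxed livers the citrate carrier thus stood above its H2O level and the citrate-cleaving enzyme below its own. This contrast describes the levels only, because Slc13a5 entered the tests through the group where it was high.

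Acetyl-CoA carboxylase has 2 genes, Acaca for the cytosolic form that feeds synthesis and Acacb for the form at the outer mitochondrial membrane, whose malonyl-CoA inhibits fatty acid entry for oxidation. Acaca was at 7.71 and 5.36 FPKM after H2O and at 1.64 and 1.85 after injury in floxed livers, and at 5.10 and 5.24 after H2O and 1.37 and 1.20 after injury in KO livers. It fell by the same amount in both genotypes, by 1.44 ± 0.17 on the log2 scale (adjusted p = 0.000327 in floxed and 0.000251 in KO livers). Acacb was at 18.7 and 13.4 FPKM after H2O and at 2.01 and 1.82 after injury in floxed livers, and at 14.1 and 11.99 after H2O and 5.30 and 3.88 after injury in KO livers. Every injured library was below every H2O library, and both injured KO libraries were above both injured floxed ones. Acacb fell by 2.53 ± 0.20 in floxed livers (adjusted p = 6.73e-05) and dropped by 1.33 ± 0.20 in KO livers (adjusted p = 0.000834). Injured KO livers held 2.40-fold the Acacb of injured floxed livers (log2 difference 0.93 ± 0.20, adjusted p = 0.0064). The change by injury differed between genotypes by 1.20 ± 0.29 (adjusted p = 0.0155), a call lost without floxed H2O library 1 (adjusted p = 0.0507), without injured floxed library 2 (0.0545), without the filter on low values (0.0545) and with libraries centred on hepatocyte markers (0.0696), and the adjusted p ranged from 0.00315 to 0.0696 over the alternatives.

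The balance of the 2 carboxylase genes is described by library without a test, and it draws on the same values as above. The ratio of Acacb to Acaca, both in FPKM, was 2.43 and 2.51 in floxed and 2.76 and 2.29 in KO livers after H2O. It was 1.22 and 0.988 in injured floxed livers and 3.88 and 3.24 in injured KO livers. The H2O groups overlapped and lay between the injured groups, which did not overlap.

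**Figure D2:**
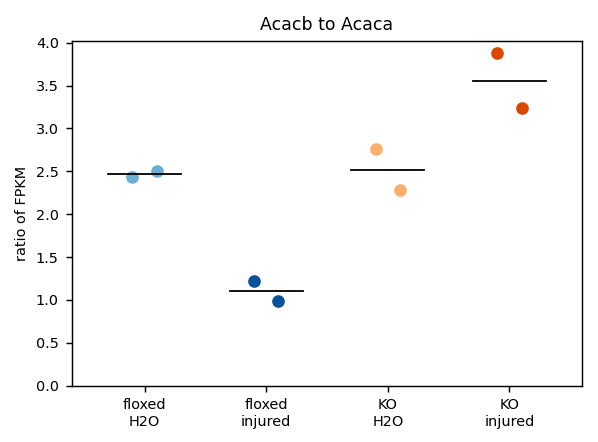
Ratio of Acacb to Acaca in FPKM in each library, by genotype and treatment. Points are libraries and lines are the means of 2. The H2O libraries lie between 2.29 and 2.76, both injured floxed ones at 1.22 or less and both injured KO ones at 3.24 or more.

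Me1 encodes cytosolic malic enzyme, which yields NADPH for synthesis. It was at 30.4 and 34.0 FPKM after H2O and at 19.8 and 16.8 after injury in floxed livers, and at 21.8 and 40.8 after H2O and 13.6 and 13.8 after injury in KO livers. The H2O-treated KO libraries differed from each other more than the injured ones did. Me1 fell by 1.07 ± 0.27 on the log2 scale in KO livers (adjusted p = 0.00963). With hepatocyte-marker centring that call was lost (adjusted p = 0.0598), and the log2 change was -1.51 and -0.64 without KO library 1 and 2 of the H2O group. In floxed livers it fell by 0.78 ± 0.27 (adjusted p = 0.0383), and that call was lost without any 1 of the floxed or injured KO libraries, without the filter, and with median, quantile or hepatocyte-marker scaling (adjusted p from 0.00594 to 0.637 over the alternatives).

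Fasn encodes fatty acid synthase, the enzyme that assembles palmitate. It was at 115 and 66.5 FPKM after H2O and at 16.7 and 18.1 after injury in floxed livers, and at 66.6 and 80.4 after H2O and 6.91 and 6.48 after injury in KO livers. The groups fell into 3 levels that did not overlap, with both H2O groups highest and injured KO livers lowest. Injured floxed livers held 19.1% of the Fasn of their H2O group (fall of 2.27 ± 0.26 on the log2 scale, adjusted p = 0.000292) and injured KO livers 9.11% of theirs (fall of 3.27 ± 0.26, adjusted p = 4.34e-05). Between the injured genotypes Fasn was lower in KO livers by a log2 difference of -1.25 ± 0.26 (adjusted p = 0.00496), a call that held under all 18 alternatives. The difference between the genotypes' changes was -0.999 ± 0.363 (adjusted p = 0.0653), which did not pass. It passed under 5 of 17 alternatives, among them without floxed H2O library 1 (-1.39, adjusted p = 0.019) and over the alternatives the adjusted p ran from 0.019 to 0.167.

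Elovl6 and Scd1, which act after the synthase, did not pass in either genotype. Elovl6 encodes the elongase that takes palmitate to stearate, and was at 15.1 and 11.1 FPKM after H2O and at 14.8 and 11.7 after injury in floxed livers, and at 9.47 and 11.6 after H2O and 13.1 and 15.4 after injury in KO livers. With injury its log2 change was 0.02 ± 0.20 in the floxed (adjusted p = 0.938) and 0.41 ± 0.20 in the KO groups (adjusted p = 0.117). Scd1 encodes stearoyl-CoA desaturase 1, which introduces the double bond of oleate, and was at 1038 and 692 FPKM after H2O and at 1216 and 895 after injury in floxed livers, and at 736 and 1052 after H2O and 607 and 660 after injury in KO livers. The injured KO libraries were the lowest of the 8, below libraries of the other groups that overlapped among themselves. Its log2 change was 0.30 ± 0.29 in floxed (adjusted p = 0.406) and -0.47 ± 0.29 in the KO groups (adjusted p = 0.188), and the injured genotypes differed by -0.72 ± 0.29 (adjusted p = 0.0698). Scd2, a close relative that could share reads with it, was at 0.244 to 1.48 FPKM in all libraries. With the libraries centred on hepatocyte markers instead, Elovl6 rose in both genotypes and Scd1 in floxed livers, Slc13a5 rose in both, and the other genes that fell still did, apart from Me1. Elovl6 also rose in KO livers with median centring (0.63, adjusted p = 0.0383), and Scd1 fell in KO livers with quantile normalisation (-0.79, adjusted p = 0.0384).

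Srebf1 and Mlxipl encode the transcription factors, SREBP-1 and ChREBP, and each level sums all isoforms of the gene. Srebf1 was at 40.7 and 40.6 FPKM after H2O and at 3.39 and 4.70 after injury in floxed livers, and at 37.8 and 55.5 after H2O and 7.39 and 6.38 after injury in KO livers. It fell by 3.06 ± 0.22 on the log2 scale in floxed (adjusted p = 4.44e-05) and dropped by 2.57 ± 0.22 in KO livers (adjusted p = 6.22e-05). Both injured KO libraries were above both injured floxed ones, by a log2 difference of 0.65 ± 0.22 (adjusted p = 0.038). That call was lost without the filter, with hepatocyte-marker centring, and without either floxed H2O library, injured floxed library 1 or either injured KO library (adjusted p from 0.0113 to 0.215 over the alternatives). Mlxipl was at 488 and 314 FPKM after H2O and at 52.2 and 59.5 after injury in floxed livers, and at 447 and 309 after H2O and 82.8 and 90.2 after injury in KO livers. It fell by 2.79 ± 0.27 in floxed (adjusted p = 0.000151) and dropped by 2.09 ± 0.27 in KO livers (adjusted p = 0.000412), and the log2 difference between the injured genotypes was 0.62 ± 0.27 (adjusted p = 0.0878). Exons of 5 of the genes overlap exons of genes on the other strand, among them Mlxipl with Gm43500 (mean 34.4 FPKM), Elovl6 with Gm35986 (4.05 FPKM) and Srebf1 with Rai1 (3.01 FPKM). The labels do not say whether strand was used in counting, so reads of these pairs cannot be told apart.

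**Figure D3:**
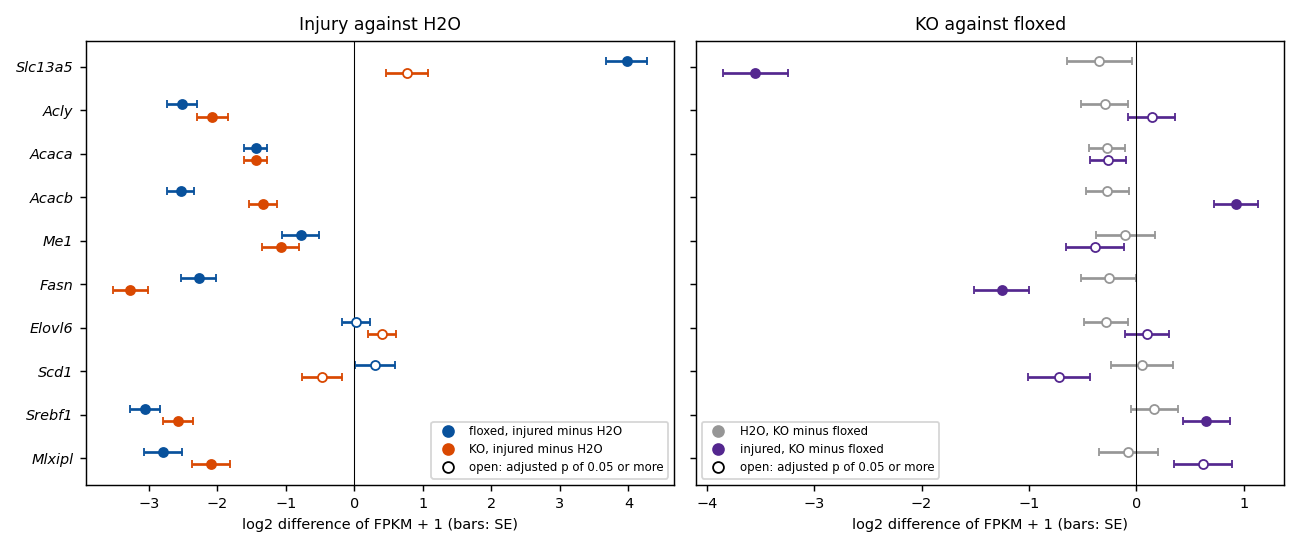
Log2 difference of FPKM + 1 for each gene, with bars for the standard error. Injury against H2O in each genotype is on the left and KO against floxed under each treatment on the right. Filled points have an adjusted p under 0.05: between the injured genotypes these are Acacb and Srebf1, higher in KO, and Fasn and Slc13a5, lower in KO. With hepatocyte-marker centring Me1 did not pass in either genotype, Slc13a5 rose in KO livers, Srebf1 did not pass between the injured genotypes, and Elovl6 in both genotypes and Scd1 in floxed livers rose.

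Between the injured genotypes 2 of the 10 genes were higher in KO livers and 2 were lower, in a comparison in which 25.3% of all genes were higher and 27.2% lower. The count is near that of all genes, and the median log2 difference of the 10 genes, -0.08, was close to that of all genes, -0.04. The difference between the genotypes' changes by injury was positive and past the threshold for Acacb and negative for Slc13a5, where 20.9% of all genes were positive and 15.1% negative. Slc13a5 is one of the lower genes and of the interaction calls, and it lends no support to these counts for the reason given above.

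Under H2O none of the 10 genes passed between the genotypes. The limma test called 1 of all 13708 genes (0.0073%), the interferon-induced Oas2, and a voom fit to the recovered fragments called 14, with none of the 10 among them. None of the 10 had an unadjusted p under 0.05 with either tool, against 5.69% of all genes (780) with limma and 5.41% with voom. With shares this low, none among 10 genes is not a result about the 10. Their lowest unadjusted p was 0.146 with limma, for Acaca, and 0.117 with voom. Their limma log2 differences lay between -0.34 for Slc13a5 and 0.17 for Srebf1. For Slc13a5, whose KO libraries were both below the floxed ones, the pseudocount shrinks the difference, which was -1.07 with a pseudocount of 0.1 FPKM and -1.37 with voom and did not pass with either. These p-values do not show that the genotypes are alike.

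The order of the genes by level changed with injury. In both H2O groups Scd1 was highest, followed by Mlxipl and Fasn, and Slc13a5 was lowest after Acaca. The next-ranked Acacb and Elovl6 overlapped in floxed livers, as did Srebf1 and Acly in KO livers, and other neighbours did not overlap. In injured floxed livers Slc13a5 stood in the place after Scd1 and Mlxipl, Me1 and Fasn overlapped, and Acacb and Acaca overlapped at the bottom. In injured KO livers Fasn had dropped to the level of Srebf1, Elovl6 overlapped Me1, and Acaca overlapped Slc13a5 at the bottom.

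Genes around the core pathway were read in 9 lists by role. In floxed livers the median log2 change of a list ran from -1.39 (ChREBP control and glycolytic supply) to 0.0047 (malonyl-CoA and synthase accessories), and in KO livers from -1.64 (cholesterol synthesis) to -0.26 (citrate, acetyl-CoA and NADPH supply), where the median of all genes was -0.28 in both. For KO against floxed under injury the list medians ran from -0.78 (cholesterol synthesis) to 0.64 (ChREBP control), against -0.04 for all genes. The counts of falls and rises below stand against 38.8% and 18.5% of all genes in floxed and 40.7% and 22.3% in KO livers. Those between the injured genotypes stand against 25.3% of all genes higher and 27.2% lower in KO livers. Of 13 tested genes that supply citrate, acetyl-CoA and NADPH, 9 fell and 1 rose in injured floxed livers, and 4 fell and 2 rose in injured KO livers, where hepatocyte-marker centring gave 4 and 5. Slc25a10, the dicarboxylate carrier of mitochondria, fell from 44.4 to 5.84 FPKM in floxed livers (log2 change -2.73 ± 0.17) and from 45.7 to 17.0 in KO livers (-1.38 ± 0.17), and this change differed between genotypes (adjusted p = 0.00613). Acss2, the acetate-activating enzyme, fell by 2.68 ± 0.22 in floxed and dropped by 1.94 ± 0.22 in KO livers. Pgls, of the oxidative pentose phosphate pathway, fell by 1.16 ± 0.23 in floxed and rose by 0.70 ± 0.23 in KO livers. Between the injured genotypes 6 of the 13 were higher in KO and 2 lower, and without injured KO library 1 the counts were 3 and 1.

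Among 8 tested genes that act on malonyl-CoA or on the carboxylase and synthase proteins, 3 fell and 2 rose in floxed, and 4 fell and 2 rose in KO livers, with 1 falling and 4 rising in floxed livers under hepatocyte-marker centring. Mid1ip1, which promotes polymerisation of the carboxylase, fell by 2.58 ± 0.31 in floxed and dropped by 1.92 ± 0.31 in KO livers on the log2 scale. Trib1, a pseudokinase, rose by 2.05 ± 0.24 in floxed and by 2.41 ± 0.24 in KO livers. Nudt7, a peroxisomal CoA hydrolase, averaged 125 FPKM after H2O and 132 after injury in the floxed groups and 133 and 16.6 FPKM in the KO groups, a log2 change of 0.09 ± 0.22 and -2.91 ± 0.22 that differed between genotypes (adjusted p = 0.00127).

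Of 13 tested elongation and desaturation genes other than the members, 10 fell and 1 rose in floxed, and 9 fell and none rose in KO livers. Elovl3, the elongase of very long saturated chains, averaged 241 FPKM after H2O and 12.2 after injury in the floxed groups, and 257 and 123 FPKM in the KO groups. It fell by 4.18 ± 0.29 in floxed and dropped by 1.05 ± 0.29 in KO livers, a difference between genotypes of 3.13 ± 0.41 (adjusted p = 0.00217). Fads6, named for its likeness to desaturases, fell by 2.23 ± 0.17 in floxed and dropped by 2.40 ± 0.17 in KO livers. Fads2, the delta-6 desaturase of polyunsaturated fatty acids, fell by 1.70 ± 0.20 in floxed and dropped by 0.80 ± 0.20 in KO livers. After injury 4 of the 13 were higher in KO than in floxed livers and 2 lower, and 1 and 1 without injured KO library 1. Of 6 tested genes of the separate mitochondrial synthesis pathway, 3 fell in each genotype. Its ketoacyl synthase Oxsm fell more in KO livers (by 2.02 ± 0.14) than in floxed livers (by 0.60 ± 0.14), with an adjusted p of 0.00284 for that difference.

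Downstream, 12 of 15 tested genes of acyl-CoA synthesis and glycerolipid assembly fell and 1 rose in floxed livers, and 8 fell and 1 rose in KO livers. Gpam, the mitochondrial glycerol phosphate acyltransferase, fell from 34.6 to 3.07 FPKM and from 34.0 to 1.86 FPKM (log2 changes -3.13 ± 0.16 and -3.62 ± 0.16). Lpin1, a phosphatidate phosphatase, rose by 1.87 ± 0.37 in floxed livers, whereas its log2 change in KO livers was -0.01 ± 0.37 (adjusted p = 0.0271 for the difference).

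Of 24 genes that control SREBP-1c, 12 fell and 5 rose in floxed livers and 13 fell and 3 rose in KO livers, and with hepatocyte-marker centring the floxed counts turned to 3 falling and 10 rising and the KO counts to 4 and 6. As deposited, the share that rose in floxed livers is near that of all genes tested. Between the injured genotypes 4 of the 24 were higher in KO livers and 12 lower. Insig1, which retains SREBP in the endoplasmic reticulum and is itself an SREBP target, fell by 1.41 ± 0.20 in floxed and dropped by 2.78 ± 0.20 in KO livers (adjusted p = 0.0087 for the difference). Scap, the escort of SREBP to the Golgi, fell by 1.47 ± 0.19 in floxed livers and had a log2 change of -0.19 ± 0.19 in KO livers (adjusted p = 0.00915 for the difference). Insr and Sp1, the insulin receptor and a factor for GC boxes, rose by 0.69 ± 0.17 and 0.74 ± 0.15 in floxed livers and fell by 0.86 ± 0.17 and 0.65 ± 0.15 in KO livers. Usf1, an E-box factor, went the other way, with a fall by 1.12 ± 0.19 in floxed and a rise by 0.80 ± 0.19 in KO livers.

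Of 14 genes of ChREBP control and glycolytic supply, 8 fell in each genotype, with 1 rising in floxed and 3 in KO livers, and 5 falling and 5 rising in KO livers with hepatocyte-marker centring. Khk, ketohexokinase, the first enzyme of fructose use, fell by 1.65 ± 0.25 in floxed livers and had a log2 change of 0.41 ± 0.25 in KO livers (adjusted p = 0.00507 for the difference). After injury 7 of the 14 were higher in KO than in floxed livers and 2 were lower. Mlx, the partner with which ChREBP binds DNA, was among the lower ones, with a log2 difference of -1.36 ± 0.16 (adjusted p = 0.000534). For Mlxipl, which is not in this list, that difference was 0.62 ± 0.27 and did not pass.

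In cholesterol synthesis and uptake, which SREBP-2 governs, 13 of 17 genes fell and 1 rose in floxed livers and 16 fell in KO livers, and Hmgcs1, the cytosolic HMG-CoA synthase, had log2 changes of -2.61 ± 0.19 and -3.87 ± 0.19. Between the injured genotypes 11 of these 17 were lower in KO livers and 2 higher, and 6 and 1 without injured KO library 1. In fatty acid oxidation 7 of 16 tested genes fell and 2 rose in floxed livers, and 8 fell in KO livers, with 1 falling and 4 rising in floxed livers under hepatocyte-marker centring. The share that fell in floxed livers is near that of all genes. Cpt1a, the carnitine transferase that malonyl-CoA inhibits, rose by 0.89 ± 0.15 in floxed and fell by 0.74 ± 0.15 in KO livers. Over all 9 lists 126 genes were tested, and none passed between the genotypes under H2O. The change by injury differed between genotypes for 43 of the 126. Over all genes tested 20.9% passed that test with a positive and 15.1% with a negative difference, so such calls were not more common in the lists. The genes named with such a difference were picked for a small p within their lists.

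**Figure D4:**
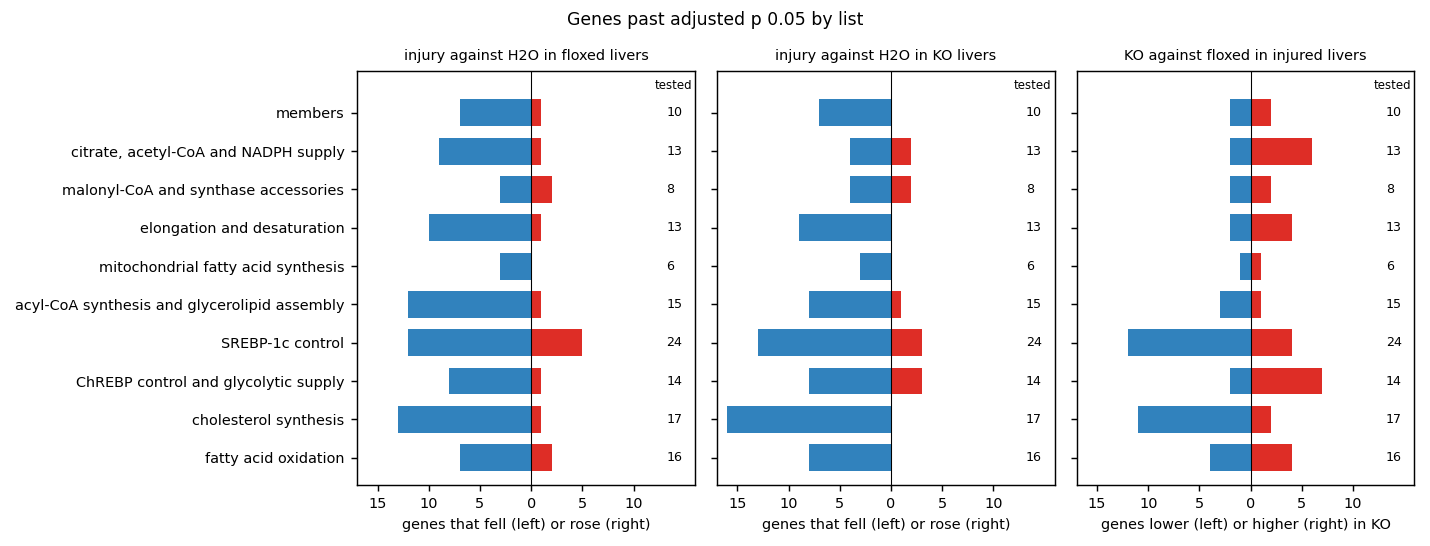
Number of genes with an adjusted p under 0.05 among the 10 members and 9 companion lists, lower to the left and higher to the right, with the number tested at the right edge. Falls outnumber rises in all 10 rows for each genotype's response to injury. With hepatocyte-marker centring rises outnumber falls in floxed livers for the lists of SREBP-1c control, malonyl-CoA accessories and fatty acid oxidation, and in KO livers for the lists of SREBP-1c control and of citrate, acetyl-CoA and NADPH supply. KO against floxed under injury has both directions in all 10 rows.

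Scaling and tissue composition moved with these comparisons. Of the genes called in floxed and KO livers 32.3% and 35.4% rose, and with median centring 49.7% and 48.2%. Centring on the hepatocyte markers put the median change of all genes at 0.35 in floxed and 0.15 in KO livers, where it was -0.28 as deposited. The shift is the same for every gene, so the smaller falls of list genes, such as that of Oxsm in floxed livers, depend on the scaling. The summed level of 7 neutrophil markers was 4.69 to 8.94 FPKM under H2O, 96.7 and 162 in injured floxed and 948 and 984 in injured KO livers. In injured KO livers none was at 0 in both libraries, and Ly6g and Mpo were at 0 in both libraries of each H2O group. The 8 markers of macrophages and monocytes summed to 44.7 to 113 FPKM under H2O, 32.8 and 52.8 in injured floxed and 298 and 153 in injured KO livers, with none at 0 in both libraries of a group. The 6 red blood cell markers summed to 26171 and 3742 FPKM in injured KO livers and to 84.6 to 323 FPKM elsewhere, and so differed between the injured KO libraries. Adipocytes, which also make fatty acids, left little trace: Adipoq, Plin1, Lep, Retn and Cidea were between 0 and 0.23 FPKM in every library, although the summed level of the 7 adipocyte markers, which include Fabp4, was 48.1 and 21.8 in injured KO livers and at most 7.54 elsewhere. The part of these cells in the differences of the 10 genes was not tested. Without mitochondrial and haemoglobin genes the same number of the 10 genes passed in each comparison.

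The 5 tested genes whose profile over the 8 libraries was most like the median profile of the 10 genes, by root mean square distance of centred log2 levels, were Proz, Arhgap29, Tnnc1, Gm40770 and Myo7a (0.132 to 0.145). Proz, which encodes the plasma glycoprotein protein Z, averaged 128 FPKM after H2O and 33.8 after injury in the floxed groups and 118 and 43.4 FPKM in the KO groups.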

How the data were processed

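RNA from liver was extracted with TRIzol and sequenced on a NovaSeq instrument from NEBNext Ultra libraries, per the labels' protocols. The authors deposited FPKM for 55416 genes, and the submitters' processing notes list DESeq2 3.15 and GRCm39. The sources used here do not name the aligner, the counting tool or the annotation. With GENCODE M21 exon lengths, 98.2% to 98.5% of values above 0 were within 0.01 of a whole number of fragments. One fragment in a gene of 1 kb was worth 0.0403 to 0.0544 FPKM. Intervals of counts were not used.

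The 13708 genes that reached 1 FPKM in 2 or more libraries were tested on log2(FPKM + 1), which understates the change of low genes, with limma 3.58.1 in R 4.3.3. The model had 1 mean for each of 4 groups, 4 residual degrees of freedom and a variance trend. Tests were two-sided, with Benjamini-Hochberg adjustment over all 13708 genes for each of 5 comparisons, and 0.05 was the threshold. Rise, fall and change are written of genes that passed. The procedure was tested on simulated data. Companion lists are described by counts. From each list at most 4 genes with the smallest p in a comparison could be named, beside the 10 members, Glul and the 5 nearest profiles, and Oas2 was named after its value was seen. The members and lists were chosen with earlier results of these data known. Alternatives covered scaling, filter, pseudocount, model, voom on recovered fragments, and each library left out. Counts of the lists under other settings were added after seeing the data. Deviations of same-numbered libraries had correlations of -0.104 to 0.27, the highest between the floxed and KO groups that received H2O.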

Additional observations from a re-analysis of the deposited data

Results flagged for a closer look

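For a pair of the genes the response to injury differed between floxed and KO livers by the test of the difference itself, the interaction term of limma. Of the 10 genes 1 was positive and 1 negative, where 20.9% of all genes tested were positive and 15.1% negative. The count is thus not above that of all genes. For Acacb the log2 change in KO livers exceeded that in floxed livers by 1.20 (adjusted p = 0.0155), with group means of 16.1 FPKM after H2O and 1.91 after injury in floxed livers, and of 13.0 and 4.59 in KO livers. That call was lost under 4 of 17 alternatives, namely without floxed H2O library 1, without injured floxed library 2, with no filter and with hepatocyte-marker centring (adjusted p of 0.0507, 0.0545, 0.0545 and 0.0696). For Slc13a5 the difference was -3.21 (adjusted p = 0.00237), with means of 0.522 and 22.9 FPKM in floxed and 0.2 and 1.19 FPKM in KO livers. Slc13a5 reached 1 FPKM in 3 libraries, both injured floxed ones among them, and so entered the tests through the group where it was high. The mean for injured KO livers rests mainly on library 2, at 1.98 FPKM against 0.400 FPKM in library 1.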

How the results depend on the processing

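Of 885 values of the 10 genes under the alternatives, 814 kept their direction and their side of the threshold, 22 lost it, 20 passed it and 29 changed sign. No value that passed in the main analysis changed sign. Some alternatives cannot alter the log2 difference of a gene. These are the filter settings, the replicate block, the fit of only the groups compared, and leaving out a library of a group not compared. Direction kept under these was fixed in advance, so the total overstates how far the values were tried. The number of the 10 genes called was 7 to 8 in floxed livers, 7 to 8 in KO livers, 3 to 4 between the injured genotypes, 0 to 0 under H2O and 1 to 2 for the interaction when 1 library was left out in turn, and the interaction count was 1 without injured floxed library 2 and, likewise, 1 with no filter. A library left alone in its group is assumed to vary like the others. The sign changed when mitochondrial and haemoglobin genes were left out for Elovl6 in floxed livers (-0.085), for the Scd1 difference under H2O with quantile normalisation (-0.0068), and for the Me1 and Mlxipl differences under H2O with median centring (0.0033 and 0.030) and hepatocyte-marker centring (0.028 and 0.055). The Acaca interaction was -0.11 with a pseudocount of 0.1 FPKM, -0.045 with median centring, -0.081 with quantile normalisation, -0.0070 without mitochondrial and haemoglobin genes, -0.20 with hepatocyte-marker centring and -0.13 with voom. With 1 library left out, sign changes gave log2 ranges of -0.18 to 0.23 for Elovl6 in floxed livers, -0.14 to 0.43 for Acly and -0.056 to 0.26 for Elovl6 between the injured genotypes, -0.65 to 0.14 for Fasn, -0.24 to 0.34 for Scd1, -0.54 to 0.33 for Me1, -0.10 to 0.44 for Srebf1 and -0.39 to 0.24 for Mlxipl under H2O, and -0.22 to 0.23 for Acaca and -0.72 to 0.15 for Me1 in the interaction. The cause was not tested.

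A fit with the replicate number as a block called 8 of the 10 genes in floxed livers, 7 in KO livers, 4 between the injured genotypes, 0 under H2O and 2 for the interaction, as the fit without it did, but the numbers do not pair the libraries. Acaca has a mean under 5 FPKM and has no value with that filter. Hepatocyte-marker centring gave Fasn changes of -1.64 and -2.84 in floxed and KO livers. Slc13a5 in KO livers passed with 6 of the 18 alternatives (log2 changes of 0.22 to 2.09), among them without injured KO library 1 (1.31). Mlxipl between the injured genotypes passed with voom and in a fit of only these groups, and Scd1 with voom and quantile normalisation.

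Over all genes, a mean of at least 5 FPKM called 3686 genes in floxed livers, 3519 in KO livers, 3397 between the injured genotypes and 2440 for the interaction, against 7861, 8639, 7192 and 4940 of 13708, with fewer genes (5626) tested. Under H2O it called 17 genes against 1, and none of the 10. Depth limits Slc13a5 most, with as few as 14 fragments in a library.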
